A study of Mus musculus with 12 samples.

Results

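The transcripts of 9 Toll-like receptors, Tlr1, Tlr2, Tlr3, Tlr4, Tlr6, Tlr7, Tlr8, Tlr9 and Tlr13, and of the co-receptor Cd14 were followed in mouse gingiva with and without ligature-induced periodontitis. These 10 genes were chosen by name from the 21965 genes of the count table, with earlier results of these data known. All 10 were among the 15046 genes with enough counts to be tested. The gene lists used below were also chosen with those results known. The shares of all genes beside member and list counts are therefore a description only. RNA-seq was performed on polyA RNA of gum tissue from 4 groups of 3 age- and sex-matched mice, with each library standing for 1 mouse. The groups were C57BL/6 (wildtype) and Cybb-/- mice, called WT and CybbKO, each either naive or ligated. Ligated mice carried a silk thread around a maxillary molar for 8 days before the surrounding gingiva was taken, and naive mice carried none. All mice were younger than 12 weeks. Cybb encodes the catalytic subunit of the phagocyte NADPH oxidase Nox2, and the labels name a plain Cybb-/- genotype with no Cre, so the loss was not restricted to 1 cell type.

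Toll-like receptors are membrane proteins that sense conserved microbial molecules and signal through the adaptors MyD88 and TRIF to NF-kappaB and interferon regulatory factors. One set sits at the cell surface and recognizes bacterial lipoproteins, lipopolysaccharide or flagellin, while another set sits in endosomes and recognizes nucleic acids. In the gum they are carried by epithelium, stroma and resident or infiltrating leukocytes, and the bacterial film that gathers around a ligature supplies ligands for many of them.

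Library totals ran from 27958819 to 42613423 counts. Cybb itself had more counts in the libraries labelled CybbKO than in WT, at 41.6, 56.3 and 45.9 CPM (counts scaled to the library's total) against 5.6, 5.38 and 4.19 CPM in naive tissue. Gene counts do not show which exons the reads came from, so they do not check the genotype labels. The tissue label was checked against 10 epithelial keratin and junction markers, which were detected in all 12 libraries with a summed level between 60257 and 123902 CPM. Salivary gland markers were uneven, with a summed level of 63.4 CPM in WT naive replicate 1, 29137 CPM in WT naive replicate 3 and 1628 to 5015 CPM in the other libraries. CybbKO ligated replicate 2 stood apart from its group in several ways that touch the receptors, and values without it are given below. In bulk tissue, fewer cells of a type cannot be told apart from less RNA per cell.

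The receptor genes lie on several chromosomes of GRCm38, where Tlr1 (chr5:64924679-64933563) neighbours Tlr6 (chr5:64952031-64960097) and Tlr8 (chrX:167242696-167264329) neighbours Tlr7 (chrX:167304929-167330558), all on the minus strand. The others are Tlr2 (chr3:83836272-83841767, minus strand), Tlr3 (chr8:45395665-45411080, minus strand), Tlr4 (chr4:66827584-66930284, plus strand), Tlr9 (chr9:106222598-106226883, plus strand) and Tlr13 (chrX:106143204-106160493, plus strand). Tlr1 and Tlr6 share 340 stretches of 75 bases, which is 10.3% of those in Tlr1 transcripts and 9.25% of those in Tlr6 transcripts, so their counts are uncertain to that extent. Tlr3 overlaps the antisense gene Gm45542 by 698 bases on the opposite strand, and counting was stated to use strand.

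Because most members moved together with the ligature, their promoters were searched for binding motifs of factors that act in myeloid and inflamed cells. RefSeq windows, from 250 bases before to 50 bases after a start on GRCm38.p6, were given for 7 of the 10 genes (9 windows), and none for Tlr4, Tlr7 and Cd14. The motifs were GAGGAAGT for PU.1/ETS, GGGANNTTC for NF-kappaB, GAAANNGAA for interferon response elements and TGANTCA for AP-1, each sought on both strands. Among 32851 windows of all genes, 3.2%, 3.94%, 8.56% and 7.81% held them, in that order. Counted by gene, 3.69%, 4.47%, 9.76% and 8.97% of 27025 genes had a match in at least 1 window. A PU.1/ETS match was present in Tlr1 and Tlr9, an NF-kappaB match in Tlr2 (GGGAAGTTC) and Tlr3 (GGGAGTTTC), an interferon response match in Tlr6 and Tlr8, and an AP-1 match in Tlr9. No match was found in the Tlr13 window or in the other window of Tlr1 and of Tlr6. The matches are of letters, not shown binding sites. In Tlr3 and Tlr6 the matched window had all 250 bases before its start inside the annotated gene. The 250 bases before the start are printed 5′ to 3′ for the 3 receptors whose window overlapped the annotated gene by at most 5 bases, with the motif matches in capitals. They are Tlr1 (chr5:64933559-64933808, minus strand, PU.1/ETS), Tlr8 (chrX:167264330-167264579, minus strand, interferon response) and Tlr9 (chr9:106222348-106222597, plus strand, AP-1).
Tlr1: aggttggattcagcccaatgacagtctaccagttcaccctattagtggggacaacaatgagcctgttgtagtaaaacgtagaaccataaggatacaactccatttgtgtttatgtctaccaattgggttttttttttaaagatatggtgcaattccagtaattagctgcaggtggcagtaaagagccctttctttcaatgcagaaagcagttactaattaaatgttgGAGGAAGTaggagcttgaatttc
Tlr8: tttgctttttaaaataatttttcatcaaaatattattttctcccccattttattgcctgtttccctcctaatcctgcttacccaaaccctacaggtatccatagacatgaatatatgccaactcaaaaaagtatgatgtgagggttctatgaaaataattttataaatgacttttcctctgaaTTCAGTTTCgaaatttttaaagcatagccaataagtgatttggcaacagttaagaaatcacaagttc
Tlr9: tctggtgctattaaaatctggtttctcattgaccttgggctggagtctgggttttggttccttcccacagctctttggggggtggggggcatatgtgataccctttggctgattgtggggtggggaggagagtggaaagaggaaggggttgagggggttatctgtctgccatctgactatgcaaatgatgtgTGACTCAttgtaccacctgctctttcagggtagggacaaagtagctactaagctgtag
The PU.1/ETS match of Tlr1 begins 23 bases before the start, the interferon response match of Tlr8 67 bases before it, and the AP-1 match of Tlr9 58 bases before it. The PU.1/ETS match of Tlr9 lies after the start and is not in the stretch shown.

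Levels were compared between genes as CPM per kilobase of exon (RPKM). In naive WT gingiva the order was led by Tlr4 at 2.85 ± 0.398 RPKM (SD, n = 3), Cd14 at 2.46 ± 1.28 and Tlr2 at 2.45 ± 0.848, whose libraries overlapped. Tlr3 followed at 1.15 ± 0.297 RPKM and stood clear of Tlr2 above and Tlr13 below. Tlr13, Tlr6, Tlr7 and Tlr1 lay between 0.405 and 0.255 RPKM, and Tlr8 and Tlr9 were last at 0.156 ± 0.0361 and 0.105 ± 0.0434 RPKM. Naive libraries labelled CybbKO gave the same first 5 places.

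In ligated tissue the top of the order per length differed. Cd14 held the first place in WT at 5.09 ± 2.58 RPKM (SD, n = 3), although its libraries overlapped those of Tlr4 (3.52 ± 0.251) and Tlr2 (3.26 ± 0.649). That place depends on the division by length, since in CPM Cd14 (8.82) stood below Tlr4 (19.6), Tlr2 (9.81) and Tlr3 (9.63) in ligated WT, and in ligated CybbKO Cd14 (20.8) stood above Tlr4 (19.7) and Tlr2 (16.9). In ligated libraries labelled CybbKO, Cd14 reached 12 ± 2.57 RPKM, Tlr2 5.62 ± 1.24, Tlr4 3.54 ± 0.646 and Tlr3 2.13 ± 0.489, and no library of one of these genes overlapped the next in this order. Tlr9 remained the lowest in every group, with 6 to 29 counts per library, so its values carry more counting error than the others.

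**Figure D1:**
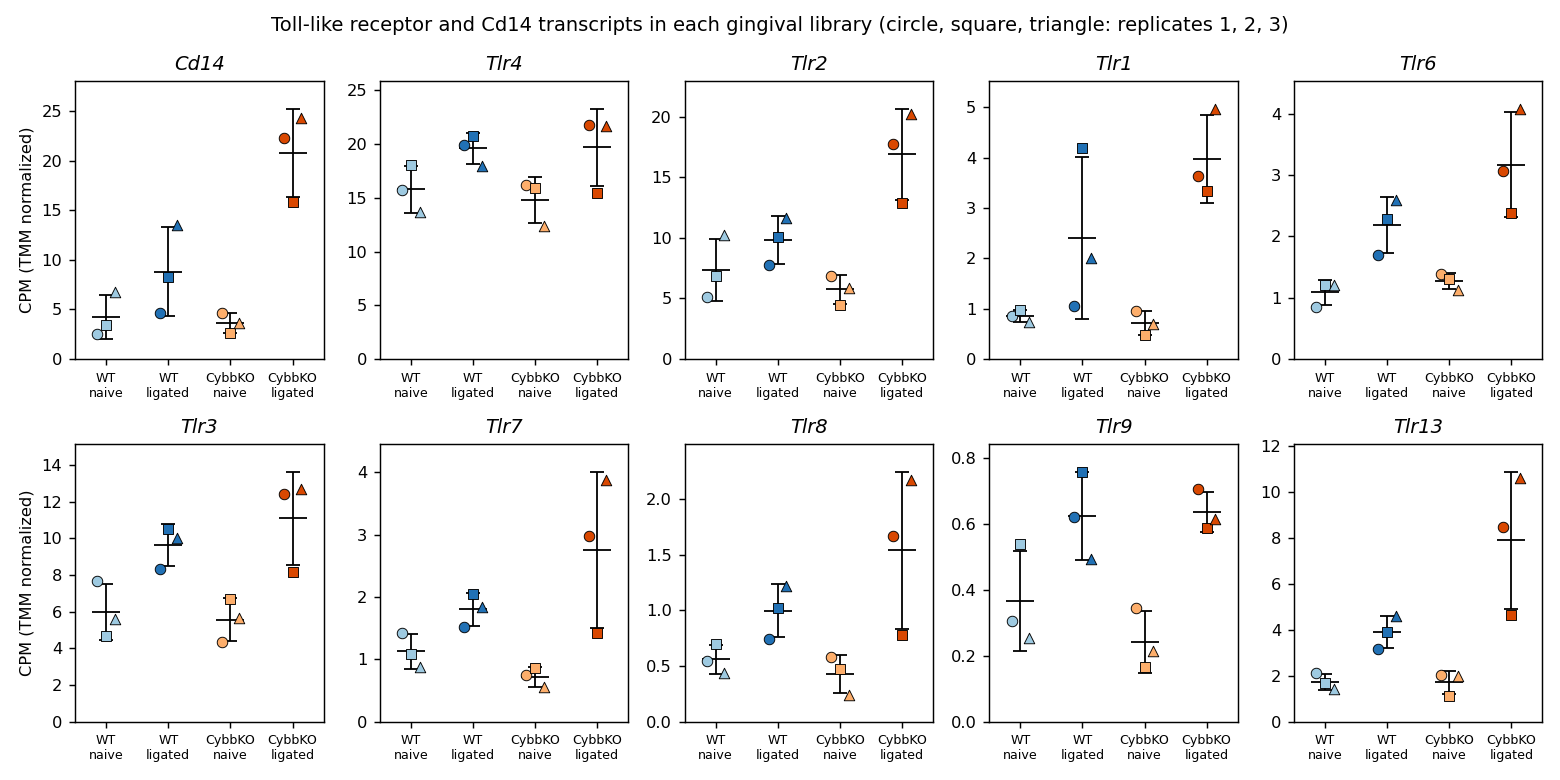
CPM (TMM normalized, linear axes from 0, different for each gene) of the 10 genes in each library, with circles, squares and triangles for replicates 1, 2 and 3, and horizontal lines and bars for the group mean and SD of 3 libraries. In ligated libraries labelled CybbKO the square, replicate 2, is the lowest point of its group in all 10 panels.

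The first question was how the receptors changed with the ligature in each genotype. In libraries labelled CybbKO, 9 of the 10 genes rose and only Tlr4 did not pass the test, where 9.95% of all tested genes were called higher (edgeR, adjusted p under 0.05, 13% in either direction). Their median log2 fold change was 1.69, against -0.03 over all genes. In WT all 10 had values above 0, as did 46.7% of all genes, with a median of 0.79 against -0.03, but 0 of 10 passed edgeR's test, where 2.31% of all genes were called higher and 3.2% in either direction. At an unadjusted p under 0.05 there were 5 of 10 in WT, Tlr1, Tlr3, Tlr6, Tlr13 and Cd14, beside 19.9% of all genes, and DESeq2 called 3 of them, Tlr1, Tlr6 and Tlr13, beside 8.93%. The ligated libraries lay wholly above the naive ones for 9 of 10 genes in CybbKO and 6 of 10 in WT, beside 18.5% and 13.3% of all genes.

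Cd14, the co-receptor that hands lipopolysaccharide and lipoproteins to the surface receptors, had the largest fold change of the 10 in libraries labelled CybbKO, barely above Tlr1. Without CybbKO naive replicate 1 the order turned, at 2.74 for Cd14 and 2.76 for Tlr1 on the log2 scale. Cd14 measured 4.62, 2.58 and 3.66 CPM in naive and 22.3, 15.8 and 24.3 CPM in ligated libraries. Every ligated library was above every naive one, with a fitted rise of 5.75-fold (log2 fold change 2.52 ± 0.43 SE, edgeR adjusted p = 0.00437). WT libraries measured 2.56, 3.45 and 6.78 CPM when naive and 4.63, 8.32 and 13.5 CPM when ligated, so the states overlapped. The WT difference was 2.08-fold (1.05 ± 0.42, edgeR adjusted p = 0.189). Without WT naive replicate 3, the library rich in salivary markers, it was 1.55 on the log2 scale, and without WT ligated replicate 3 it was 0.61, neither of which was called.

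Tlr4, the lipopolysaccharide receptor that Cd14 serves, changed least. It measured 16.2, 15.9 and 12.4 CPM in naive and 21.8, 15.5 and 21.7 CPM in ligated libraries labelled CybbKO. Replicate 2 of the ligated group fell within the naive range. The log2 fold change was 0.41 ± 0.17 (edgeR adjusted p = 0.152), and it was called only when that replicate was left out, at 0.55. In WT, 15.7, 18.1 and 13.7 CPM stood against 19.9, 20.8 and 18 CPM, a log2 fold change of 0.31 ± 0.17 (edgeR adjusted p = 0.354). The highest naive WT library lay just above the lowest ligated one.

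Tlr2 recognizes bacterial lipoproteins as a partner of either Tlr1 or Tlr6. In libraries labelled CybbKO it measured 6.87, 4.49 and 5.86 CPM in naive and 17.7, 12.9 and 20.2 CPM in ligated tissue. The groups did not overlap, and Tlr2 rose 2.95-fold (log2 fold change 1.56 ± 0.28, edgeR adjusted p = 0.00522). In WT it measured 5.15, 6.83 and 10.2 CPM in naive and 7.74, 10.1 and 11.6 CPM in ligated tissue. These overlapped and differed by 0.41 ± 0.28 on the log2 scale (edgeR adjusted p = 0.439), by 0.71 without WT naive replicate 3 and by 0.21 without WT naive replicate 1.

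Tlr1, the partner for triacylated lipoproteins, measured 0.952, 0.472 and 0.702 CPM in naive and 3.63, 3.34 and 4.97 CPM in ligated libraries labelled CybbKO. It rose 5.61-fold there, with the ligated libraries close together (log2 fold change 2.49 ± 0.46, edgeR adjusted p = 0.006). In WT the naive values were 0.853, 0.98 and 0.729 CPM and the ligated values were 1.05, 4.19 and 2 CPM. Replicate 2 was far above the other ligated WT libraries, and the fold of 2.81 (log2 1.49 ± 0.45, edgeR adjusted p = 0.0935) dropped to 0.83 on the log2 scale without it and passed the test at 1.88 without replicate 1.

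Tlr6, the partner for diacylated lipoproteins, had the smallest gap between the genotypes' fold changes among the lipoprotein receptors. It measured 1.39, 1.30 and 1.13 CPM in naive and 3.06, 2.38 and 4.08 CPM in ligated libraries labelled CybbKO, a rise of 2.49-fold (log2 fold change 1.32 ± 0.28, edgeR adjusted p = 0.0111). This call was lost without CybbKO ligated replicate 3. In WT, 0.853, 1.2 and 1.2 CPM stood below 1.69, 2.28 and 2.59 CPM with no overlap. The log2 fold change was 1.01 ± 0.28 (edgeR adjusted p = 0.0767).

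Among the endosomal receptors, Tlr13, the mouse sensor of bacterial ribosomal RNA, changed most. Libraries labelled CybbKO held 2.02, 1.14 and 1.98 CPM when naive and 8.49, 4.65 and 10.6 CPM when ligated. The ligated libraries were all higher, and the rise was 4.61-fold (log2 fold change 2.21 ± 0.34, edgeR adjusted p = 0.00279). In WT, 2.13, 1.68 and 1.42 CPM in naive tissue lay below 3.19, 3.93 and 4.59 CPM in ligated tissue, and the difference missed the threshold (1.16 ± 0.33, edgeR adjusted p = 0.0815).

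Tlr7, a sensor of single-stranded RNA, and Tlr8 are neighbouring genes on the X chromosome. Tlr7 measured 0.75, 0.86 and 0.549 CPM in naive and 2.98, 1.42 and 3.88 CPM in ligated libraries labelled CybbKO, and rose 3.82-fold (log2 fold change 1.93 ± 0.38, edgeR adjusted p = 0.00737). Its WT values were 1.43, 1.08 and 0.875 CPM in naive and 1.52, 2.04 and 1.84 CPM in ligated tissue, separate by a narrow margin (0.67 ± 0.37, edgeR adjusted p = 0.335). Naive WT libraries held more Tlr7 than any naive library labelled CybbKO.

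Tlr8 went from 0.577, 0.472 and 0.244 CPM in naive to 1.67, 0.776 and 2.17 CPM in ligated libraries labelled CybbKO, where replicate 2 was again low. The rise was 3.55-fold (log2 fold change 1.83 ± 0.44, edgeR adjusted p = 0.0187). WT libraries held 0.548, 0.696 and 0.437 CPM when naive and 0.747, 1.02 and 1.22 CPM when ligated (0.82 ± 0.43, edgeR adjusted p = 0.317). The Tlr8 call in CybbKO rested on few counts, 8 to 20 per naive library, and was lost when any of 4 libraries was left out, namely CybbKO ligated replicate 1 or 3 or CybbKO naive replicate 2 or 3.

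Tlr9, the sensor of unmethylated CpG DNA, was the scarcest. It measured 0.346, 0.166 and 0.214 CPM in naive and 0.705, 0.588 and 0.616 CPM in ligated libraries labelled CybbKO, which did not overlap. The rise was 2.61-fold (log2 fold change 1.38 ± 0.39, edgeR adjusted p = 0.0382), a call that was lost without any of 6 libraries, CybbKO ligated replicates 1 and 3, CybbKO naive replicates 2 and 3, and WT ligated replicates 1 and 2. In WT, 0.305, 0.538 and 0.255 CPM overlapped 0.622, 0.759 and 0.493 CPM (0.76 ± 0.38, edgeR adjusted p = 0.293).

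Tlr3, which senses double-stranded RNA and signals through TRIF alone, was the most abundant endosomal receptor. In libraries labelled CybbKO it measured 4.36, 6.71 and 5.64 CPM in naive and 12.4, 8.16 and 12.7 CPM in ligated tissue. It rose 1.99-fold, with replicate 2 again the lowest of the ligated libraries (log2 fold change 0.99 ± 0.25, edgeR adjusted p = 0.0227). The call was lost without CybbKO ligated replicate 1 or 3 and without CybbKO naive replicate 1 or 3. In WT, 7.67, 4.65 and 5.61 CPM lay below 8.34, 10.5 and 10 CPM (0.69 ± 0.25, edgeR adjusted p = 0.148).

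**Figure D2:**
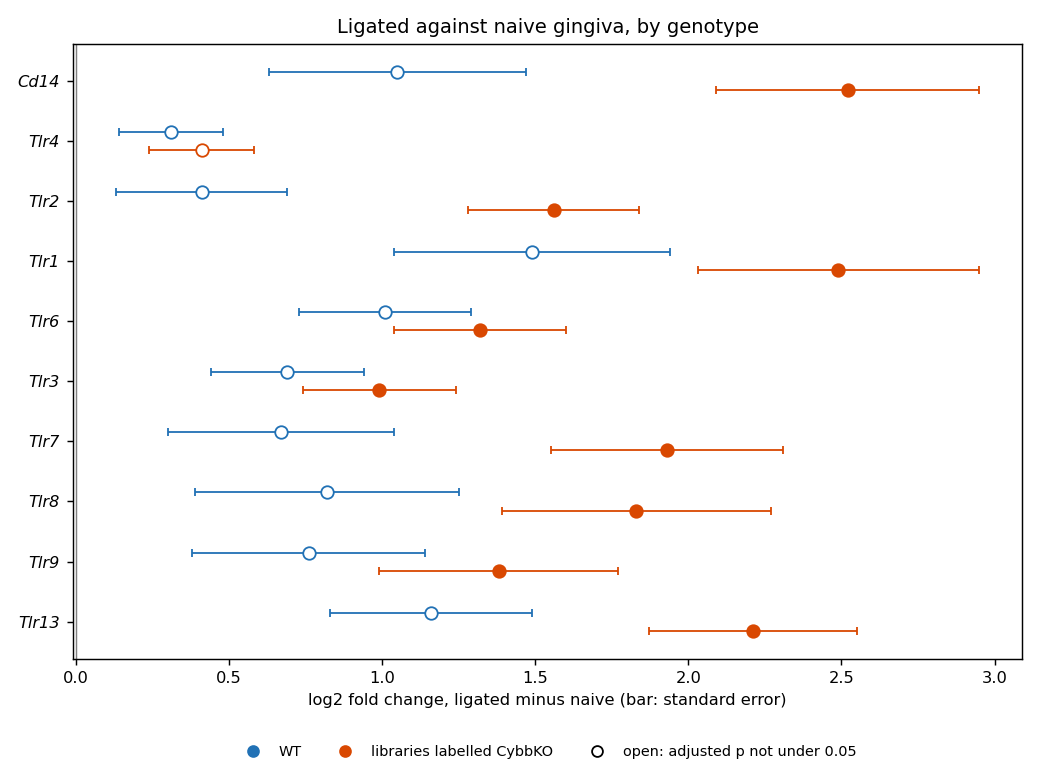
Log2 fold change of ligated against naive gingiva for each gene (horizontal axis) with its standard error, in WT (blue) and in libraries labelled CybbKO (orange), where filled points passed edgeR's adjusted p of 0.05. All 20 points lie above 0, the CybbKO point is to the right of the WT point for all 10 genes, and 9 CybbKO points and no WT point are filled.

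Averaged over both genotypes, 9 of 10 genes were called higher with the ligature, where 14.7% of all genes were called higher and 24.4% in either direction. The median of the 10 was 1.23 on the log2 scale, against -0.03 over all genes. Tlr1 (1.99 ± 0.32, edgeR adjusted p = 0.00145), Cd14 (1.79 ± 0.30, edgeR adjusted p = 0.00178) and Tlr13 (1.68 ± 0.24, edgeR adjusted p = 0.000759) had the largest folds. Tlr4 was the exception at 0.36 ± 0.12 (edgeR adjusted p = 0.0536), just outside the threshold, and DESeq2 placed it just inside. All 6 ligated libraries lay above all 6 naive ones for Tlr1, Tlr3, Tlr6, Tlr8 and Tlr13, 5 of 10 genes beside 6.73% of all genes.

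The second question was whether libraries labelled CybbKO differed from WT in the same tissue state. These contrasts use the same libraries as the ligature contrasts above and are not independent of them. In ligated tissue all 10 differences were above 0, as were those of 53.4% of all genes, though Tlr4 and Tlr9 fell to or just below 0 under other scalings. The 10 had a median log2 fold change of 0.62 against 0.01 over all genes, but 0 of 10 passed edgeR's test, where 0.00665% of genes, Cybb alone, did. DESeq2 also called 0 of 10, beside 0.112% of genes. At an unadjusted p under 0.05 there were 3 of 10, beside 3.34% of genes, and the same 3 had every CybbKO library above every WT library, beside 5%.

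These 3 were Cd14, Tlr13 and Tlr2. For Cd14 the ligated values of 22.3, 15.8 and 24.3 CPM in libraries labelled CybbKO stood above 4.63, 8.32 and 13.5 CPM in WT. That was 2.36-fold (log2 difference 1.24 ± 0.41, edgeR unadjusted p = 0.0113, adjusted p = 1). Tlr13 differed 2.03-fold (1.02 ± 0.32, edgeR unadjusted p = 0.00851, adjusted p = 1) and Tlr2 1.73-fold (0.79 ± 0.27, edgeR unadjusted p = 0.014, adjusted p = 1). The lowest CybbKO library and the highest WT library were close for Tlr13, at 4.65 and 4.59 CPM, and for Tlr2, at 12.9 and 11.6 CPM. The remaining 7 genes overlapped, from 0.73 ± 0.43 for Tlr1 down to 0.03 ± 0.36 for Tlr9 and 0.01 ± 0.17 for Tlr4.

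In naive tissue 1 of 10 differences was above 0, beside 50.5% of all genes, with a median of -0.25 on the log2 scale against 0.00 over all genes. By edgeR 0 of 10 passed, beside 0.00665% of all genes, 0 of 10 had an unadjusted p under 0.05, beside 2.03%, and DESeq2 called 0 of 10, beside 0.011%. Tlr7 alone had every library labelled CybbKO below every WT library, at 0.75, 0.86 and 0.549 against 1.43, 1.08 and 0.875 CPM, beside 3.03% of genes. The nearest libraries were almost equal, and the log2 difference was -0.65 ± 0.38 (edgeR adjusted p = 1). Tlr6 was the one gene with a value above 0, at 0.23 ± 0.29. Leaving out 1 library turned 4 other signs. Tlr3 was at 0.12 without WT naive replicate 1 and 0.05 without CybbKO naive replicate 1, and Tlr4 at 0.01 without WT naive replicate 2 and 0.02 without CybbKO naive replicate 3. Tlr13 was at 0.14 without WT naive replicate 1 and 0.20 without CybbKO naive replicate 2, and Cd14 at 0.27 without WT naive replicate 3.

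**Figure D3:**
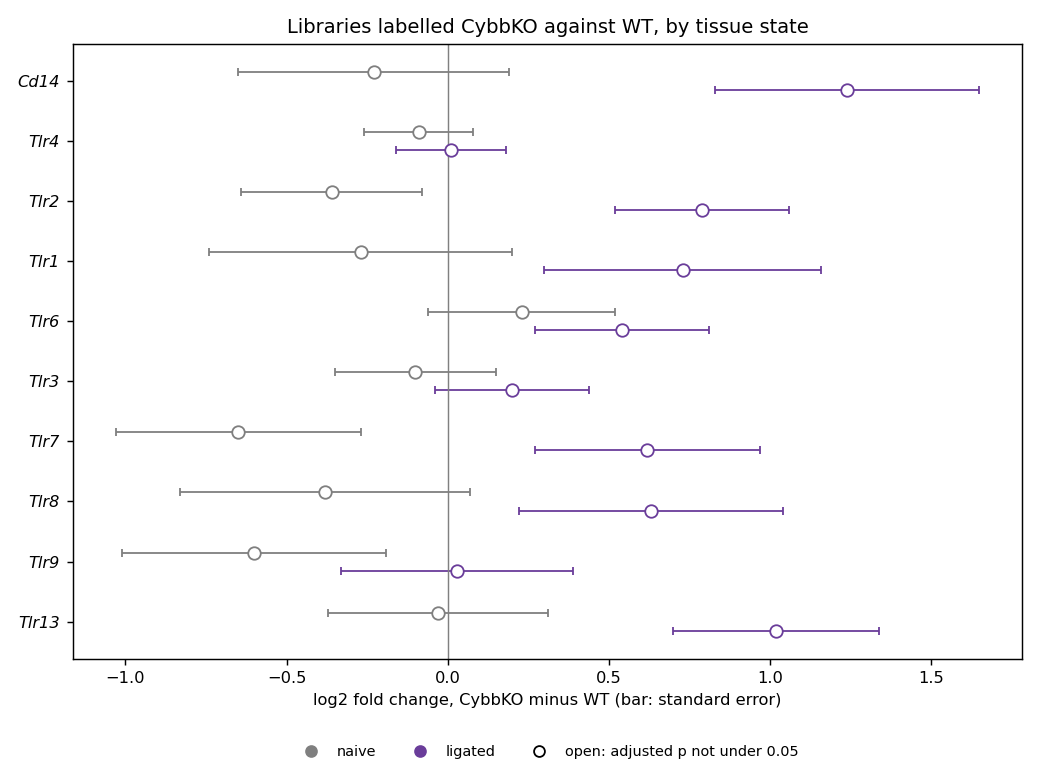
Log2 fold change of libraries labelled CybbKO against WT for each gene (horizontal axis) with its standard error, in naive (grey) and ligated (purple) gingiva, where open points did not pass edgeR's adjusted p of 0.05. All 20 points are open, 9 of 10 naive points lie below 0, of which Tlr3, Tlr4, Tlr13 and Cd14 turned above 0 when 1 library was left out, and all 10 ligated points lie above 0, with Cd14 (1.24) and Tlr13 (1.02) farthest to the right and Tlr4 and Tlr9 so near 0 that other scalings turned their sign.

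The difference between these genotype effects is the interaction, which asks directly whether the ligature response differed between genotypes. The response was larger in libraries labelled CybbKO for 10 of 10 genes, beside 53.3% of all genes, with a median excess of 1.00 on the log2 scale against 0.02. The Tlr4 excess of 0.10 turned to -0.01 without WT naive replicate 2 and without CybbKO naive replicate 3. By edgeR 0 of 10 genes passed, as did 0% of all genes, and DESeq2 also called 0 of 10 and 0%. At an unadjusted p under 0.05 there were 4 of 10, beside 2.27% of all genes. They were Cd14 (1.47 ± 0.59, edgeR unadjusted p = 0.0288), Tlr7 (1.26 ± 0.52, unadjusted p = 0.0323), Tlr2 (1.15 ± 0.39, unadjusted p = 0.0124) and Tlr13 (1.05 ± 0.47, unadjusted p = 0.0452). The other 6 ranged from 1.01 ± 0.61 for Tlr8 to 0.10 ± 0.25 for Tlr4. The calls in CybbKO and their absence in WT were not shown to differ between the genotypes for any single receptor.

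The remaining mouse receptors are Tlr5, Tlr11 and Tlr12. Tlr5, the flagellin receptor, was called higher in the averaged ligature contrast (log2 fold change 0.65 ± 0.14, edgeR adjusted p = 0.00586), with ligated against naive WT libraries at 6.75, 8.22 and 9.52 against 4.99, 4.59 and 4.63 CPM. It was the only one of the 12 receptors whose WT fold (0.78 ± 0.19) exceeded the fold in libraries labelled CybbKO (0.52 ± 0.19), although this difference was not called. Tlr12, a profilin receptor with 2 to 45 counts per library, was also called higher (1.82 ± 0.41, edgeR adjusted p = 0.00865), and Tlr11 was not. The 45 counts of Tlr12 were those of CybbKO ligated replicate 2.

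Other genes of the pathway were grouped by role. Of 12 accessory proteins that load, traffic or process the receptors, 8 rose with the ligature in libraries labelled CybbKO and 3 in WT by edgeR, beside 9.95% and 2.31% of all genes called higher, with medians of 1.13 and 0.72 on the log2 scale. DESeq2 called 8 and 5, beside 2802 genes of all in CybbKO and 8.93% of all genes in WT, in either direction. In WT 6 had an unadjusted p under 0.05, beside 19.9% of all genes. Averaged over genotypes, Ctsk rose by 2.45 ± 0.34 and Ctss by 1.53 ± 0.16 on that scale, endosomal proteases of which Ctsk is better known from bone-resorbing osteoclasts. Lbp, which delivers lipopolysaccharide to Cd14, rose by 1.49 ± 0.22, and Cd180, a surface relative of Tlr4, by 1.44 ± 0.31. Ly96, the MD-2 partner of Tlr4, measured 0.43 ± 0.17 and did not pass (edgeR adjusted p = 0.0864). Unc93b1, the chaperone of endosomal receptors, rose by 1.20 ± 0.29 in libraries labelled CybbKO (edgeR adjusted p = 0.0197).

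Among 22 adaptors and kinases, 2 were called higher with the ligature in libraries labelled CybbKO, a share near the 9.95% of all genes, with a median of 0.07 on the log2 scale against -0.03 over all genes. In WT edgeR and DESeq2 called 0 of 22, 1 had an unadjusted p under 0.05, and the median was 0.04. Of all genes in WT, edgeR called 2.31% higher, DESeq2 called 8.93% in either direction and 19.9% had an unadjusted p under 0.05, so the unadjusted share of these genes was below that of all genes. The 2 were Pik3ap1, which links receptors to PI3-kinase, at 2.42 ± 0.49 (edgeR adjusted p = 0.00856), and Ticam2, the bridging adaptor of Tlr4, at 1.75 ± 0.48 (edgeR adjusted p = 0.0329). In the averaged contrast Tirap was also called higher (0.26 ± 0.09) and Irak1 lower (-0.20 ± 0.07). Myd88, the adaptor of all members but Tlr3 and Cd14, measured -0.01 ± 0.10 in WT and 0.25 ± 0.10 in CybbKO, neither of which was called.

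Of 12 downstream transcription factors, 2 were called higher in libraries labelled CybbKO, beside the same 9.95% of all genes, with a median of 0.28. In WT edgeR and DESeq2 called 0 of 12, 1 had an unadjusted p under 0.05 beside 19.9% of all genes, and the median was -0.05. The 2 called genes were Irf8, a myeloid factor, at 1.50 ± 0.31 (edgeR adjusted p = 0.00969) and Irf1 at 1.08 ± 0.25 (edgeR adjusted p = 0.0182). Irf3 was called lower in the averaged contrast (-0.33 ± 0.08, edgeR adjusted p = 0.0148). Of 12 negative regulators, 3 were called higher in libraries labelled CybbKO, with a median of 0.37, and in WT edgeR called 0, DESeq2 1 and 2 had an unadjusted p under 0.05, with a median of 0.12, shares near the 8.93% and 19.9% of all genes for DESeq2 and the unadjusted p. Il1rl1, the interleukin-33 receptor, had the largest averaged change of that list at 3.05 ± 0.48, followed by Trim30a at 1.10 ± 0.25 and the NF-kappaB brake Tnfaip3 at 0.55 ± 0.16.

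Inducible products of receptor signaling had the largest medians of these lists. Of 12 such genes, 8 rose with the ligature in libraries labelled CybbKO and 1 in WT by edgeR, beside 9.95% and 2.31% of all genes, with medians of 2.52 and 1.45 on the log2 scale. DESeq2 called 8 and 3, beside 2802 genes of all in CybbKO and 8.93% of all genes in WT, in either direction. In WT 6 had an unadjusted p under 0.05, beside 19.9% of all genes. The gene edgeR called in both was Acod1, which makes the metabolite itaconate, at 4.25 ± 0.50 in CybbKO (edgeR adjusted p = 0.00185) and 3.15 ± 0.50 in WT (edgeR adjusted p = 0.0122). Averaged over genotypes, Il6 rose by 3.62 ± 0.81, Ccl3 by 3.00 ± 0.48 and Ptgs2, an inducible prostaglandin synthase, by 2.31 ± 0.48. Il6 and Ccl3 were each at 0 in 1 library, so their folds rest on few counts. In ligated tissue edgeR called 0 of these 12 between libraries labelled CybbKO and WT, with a median of 1.22, 5 at an unadjusted p under 0.05 (3.34% of all genes) and 1, Acod1, called by DESeq2 (0.112% of all genes).

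**Figure D4:**
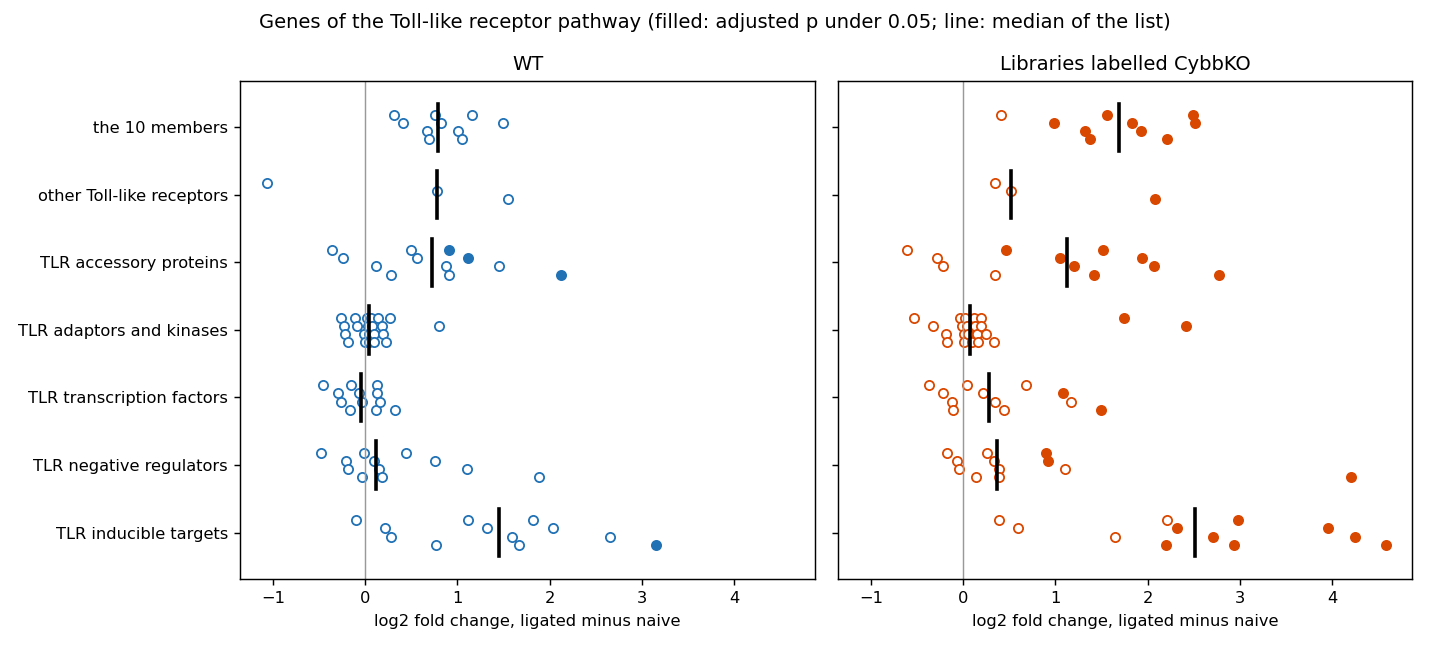
Log2 fold change of ligated against naive gingiva (horizontal axis) for every tested gene of 7 Toll-like receptor lists, in WT (left) and libraries labelled CybbKO (right), with filled points for genes called by edgeR and a black line at each list's median. The adaptors and kinases cluster near 0 in both panels, while the 10 members, the accessory proteins and the inducible targets are shifted to the right, the last to medians of 1.45 and 2.52.

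Markers of several cell types also differed with the ligature, not all in the direction of the receptors. By edgeR 12 of 12 neutrophil markers were called higher with the ligature in libraries labelled CybbKO and 1 of 12 in WT, beside 9.95% and 2.31% of all genes. DESeq2 called 12 and 7, beside 2802 genes of all in CybbKO and 8.93% of all genes in WT, in either direction. In WT 9 had an unadjusted p under 0.05, beside 19.9% of all genes. The summed level of the neutrophil markers ranged from 834 to 945 CPM in naive and 2534 to 11723 CPM in ligated CybbKO libraries, and from 390 to 862 and 1360 to 3816 CPM in WT. The same shares of all genes apply to the ligature counts of the lists that follow. Of 12 monocyte and macrophage markers, edgeR called 10 and 2 higher and DESeq2 10 and 4, with 8 at an unadjusted p under 0.05 in WT and sums of 188 to 201 and 289 to 378 CPM in CybbKO and 197 to 218 and 245 to 304 CPM in WT. The neutrophil-restricted marker Ly6g was at 0 in 1 library. Of 7 fibroblast markers edgeR called 6 in CybbKO and 3 in WT, and DESeq2 6 and 5. Of 7 endothelial markers edgeR called 6 and 3, and DESeq2 6 and 6. Dendritic cell markers were called higher in 3 of 10 and T and NK cell markers in 1 of 6 tested in CybbKO, and 0 of either in WT by edgeR, where DESeq2 called 1 and 0, and 2 and 3 had an unadjusted p under 0.05. The WT dendritic cell counts were near the 8.93% and 19.9% of all genes for DESeq2 and the unadjusted p. The B cell marker Ms4a1 went the other way and fell in CybbKO (-2.82 ± 0.64 on the log2 scale), where 3.04% of all genes were called lower. It is 1 marker of a list whose summary is not reported here, so it does not stand for B cells as a whole. Of 10 epithelial markers, Krt10 and Krt1 were called lower in CybbKO and Krt10 in WT, where 0.884% of all genes were. Of 6 skeletal muscle and 5 tested salivary gland markers edgeR called 0 in CybbKO and 0 in WT, where DESeq2 called 2 and 1 salivary markers and 0 muscle markers, and 2 and 1 salivary markers had an unadjusted p under 0.05. In ligated libraries labelled CybbKO against WT, the 12 neutrophil markers had a median log2 difference of 1.33 and the 12 monocyte and macrophage markers one of 0.56, beside the 0.62 of the receptors. By edgeR and DESeq2 0 of 12 were called in either list there, with 9 and 6 at an unadjusted p under 0.05, beside 0.00665%, 0.112% and 3.34% of all genes by these 3 rules. The part of these cell types in the receptor values was not tested.

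Within the ligated groups some markers followed the order of the receptors and others did not. CybbKO ligated replicate 2 was the lowest of its group for 10 of 10 members, with a summed level of 65.5 CPM against 94.7 and 105 CPM. Of the other receptors, Tlr5 was lowest there too, but Tlr11 and Tlr12 were highest, at 0.615 and 1.2 CPM. Replicate 2 was also lowest for the sum of neutrophil markers, at 2534 CPM against 4495 and 11723 CPM. That sum is mostly S100a8 and S100a9, and replicate 2 was lowest for 8 of 12 neutrophil markers but highest for 3, Ly6g (1.77 CPM against 0.235 and 0.502), Mmp8 and Retnlg. Its epithelial sum was the highest of the group, at 107088 CPM against 67580 and 60257 CPM, with 6 of 10 markers, all keratins, highest and 3, Trp63, Dsg3 and Epcam, lowest. Replicate 2 was also lowest for 7 of 7 fibroblast markers, with a sum of 4419 CPM against 11967 and 11048 CPM, for 5 of 7 endothelial and for 7 of 12 monocyte and macrophage markers, and highest for the other 2 endothelial (Vwf and Cldn5) and the other 5 monocyte and macrophage markers (C1qa, C1qb, C1qc, Ly6c2 and Cd163). It was highest for 6 of 6 skeletal muscle markers, at a sum of 2615 CPM against 898 and 778 CPM. WT ligated replicate 1 was the lowest of its group for 8 of 10 receptor genes, with summed neutrophil markers of 1360 CPM, the lowest of the group and so for 11 of 12 markers, and summed epithelial markers of 93729 CPM, the highest, though for 4 of 10 markers. It was lowest too for 7 of 7 fibroblast, 10 of 12 monocyte and macrophage and 6 of 7 endothelial markers, with a fibroblast sum of 6022 CPM against 7125 and 9119 CPM. How far cell makeup set these differences was not tested. Without CybbKO ligated replicate 2, 10 of 10 receptor genes were called with the ligature in libraries labelled CybbKO and 2 of 10, Tlr6 and Tlr13, in WT, while the calls over all genes went from 1954 to 2949 and from 481 to 900. In CybbKO 5 of 10 were called without CybbKO ligated replicate 3, and 6 of 10 without CybbKO ligated replicate 1 or CybbKO naive replicate 3, with 854, 837 and 1148 of all genes called in these fits.

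**Figure D5:**
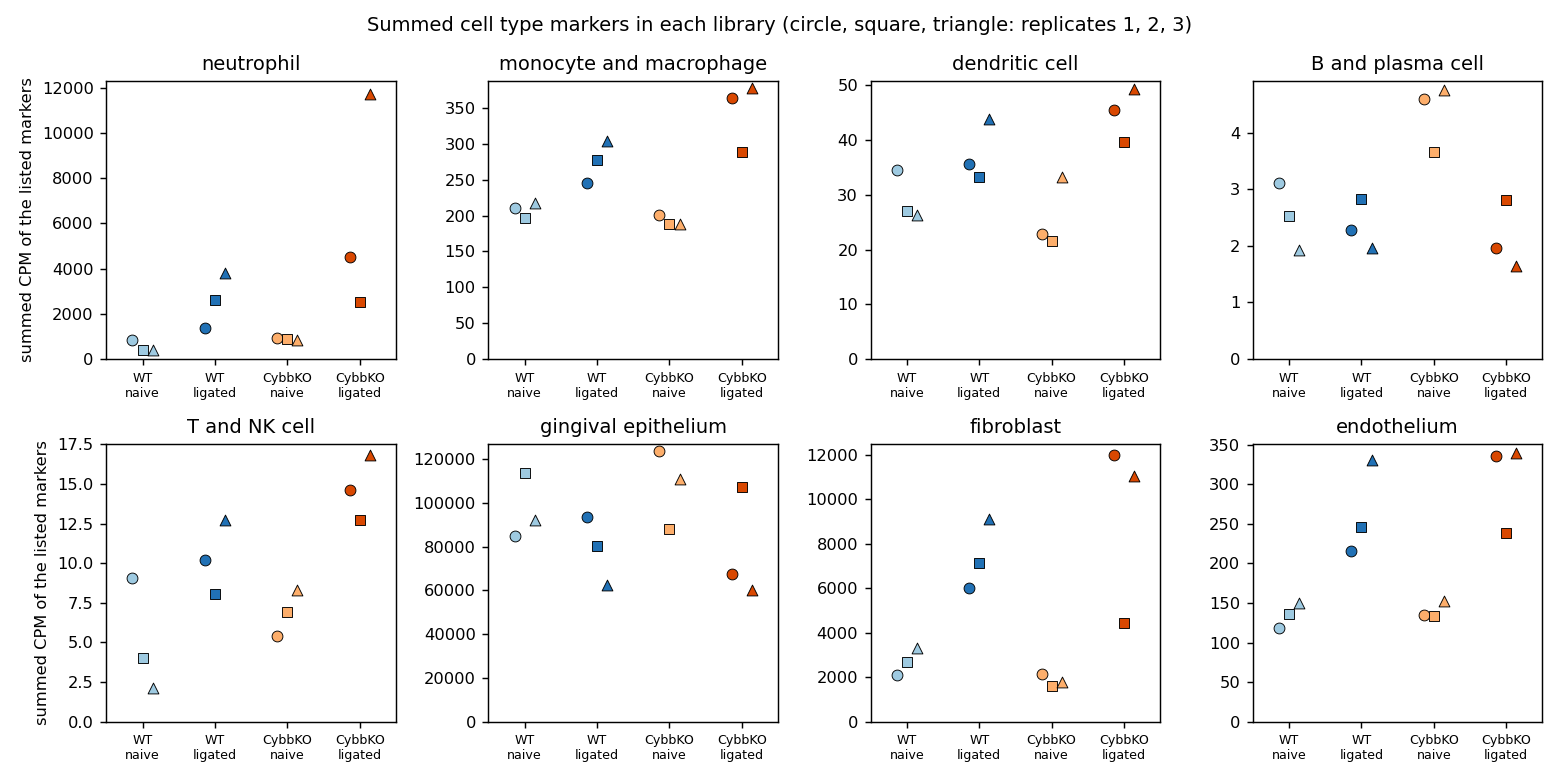
Summed CPM of the markers of 8 cell types in each library (linear axes from 0, different for each panel), with circles, squares and triangles for replicates 1, 2 and 3. The neutrophil sum, mostly S100a8 and S100a9, is highest in CybbKO ligated replicate 3 at 11723 CPM, and the square of that group, replicate 2, has the lowest neutrophil and the highest epithelial sum.

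The genes whose log2 CPM profile over the 12 libraries was nearest to each receptor differed between the members. Nearness is the root mean square difference of the centred profiles on the log2 scale, and it is a description only, as all genes share the libraries. It also depends on how much a member itself varied about its mean, from 0.25 for Tlr4 to 1.12 for Cd14. The values therefore do not rank closeness between members. For Tlr13 the nearest were Csf2rb (0.18), Cxcr2 (0.19) and Ptprc (0.19), the last being the pan-leukocyte antigen CD45. Mrc1, a macrophage mannose receptor, was nearest to Tlr7 (0.18), followed by Slit2 (0.23), a secreted guidance ligand, and Pla2g7 (0.25). For Tlr8 Mrc1 (0.22), Prr16 (0.22) and Prox1 (0.23), a lymphatic endothelial transcription factor, were about equally near, and Tlr7 and Tlr8 formed the closest pair of members (0.23). Plaur (0.27), the urokinase receptor, and Slc15a3 (0.27) were nearest to Cd14, and Fcgr1 (0.32), the high-affinity IgG receptor, to Tlr1. Tlr2 was nearest to Spata13 (0.17), P2ry6 (0.18) and Selenon (0.18), Tlr6 to Bst1 (0.17) and the endothelial genes Pecam1 (0.18) and Ecscr (0.18), Tlr9 to Mboat2 (0.20), Tlr3 to Apaf1 (0.14), and Tlr4, which varied least, to Macf1 (0.08) and Ern1 (0.08).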

How the data were processed

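Gingival polyA RNA from 12 mice in 4 groups of 3 was sequenced as stranded libraries. The authors deposited raw counts, whole numbers of reads per Ensembl gene with no normalization. The study's methods name STAR, GRCm38 and featureCounts by strand, whereas the submitters' processing notes name HTSeq 0.10.0 and FastQC 0.10.1, so the counter is not settled. Reads shared by Tlr1 and Tlr6 may be lost or split by either counter. Symbols came from GENCODE M21 for 21939 of 21965 genes.

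Differential expression was computed with edgeR 4.0.16 in R 4.3.3 (TMM normalization, filterByExpr, quasi-likelihood F tests with all 4 groups fitted together and no covariate, Benjamini-Hochberg adjustment over 15046 genes, called under 0.05). The common biological coefficient of variation was 0.2405. The SE is the log2 fold change divided by the square root of F. CPM used library totals (27958819 to 42613423 counts) scaled by TMM factors, and RPKM divided CPM by merged exon length in kilobases. The procedure was tested on simulated data. Figures and tables used Python 3.11.15.

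The 10 members and all lists were chosen with earlier results of these data known. Each member is named. Up to 4 genes per pathway list were named by largest averaged log2 fold change among called genes, with Ly96, Unc93b1 and Myd88 added after their values were seen, and the genes nearest in profile by smallest difference, of which 3 per member were computed. Alternatives were DESeq2 1.42.0, DESeq2 size factors, library size only, other filters, a robust fit, a fit restricted to the groups compared, a block on the replicate number, and leaving out each library. A comparison of protein sequences was not run, and the summary of the B and plasma cell list is not reported here.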

Additional observations from a re-analysis of the deposited data

How the results depend on the processing

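All 10 ligature differences in WT, in libraries labelled CybbKO and averaged kept their direction under every setting that gave a value. The 9 members called in CybbKO became 7 under a filter of at least 10 counts per library, which removed Tlr8 and Tlr9, 7 in a fit of only the libraries compared, and 5 to 10 when 1 library was left out. Members called ran from 0 to 2 in WT and 9 to 10 in the averaged contrast over left-out libraries, and DESeq2 called 3 in WT. No setting called a member between genotypes or in the interaction.

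Over all genes, the 481 called in WT became 1372 by DESeq2 and 27 to 900 without 1 library, lowest without WT naive replicate 2 and highest without CybbKO ligated replicate 2. The 1954 in CybbKO became 837 to 2949 and the 3668 averaged 2531 to 4694, both lowest without CybbKO ligated replicate 1 and highest without replicate 2. Between genotypes in ligated tissue the 1 gene became 18 by DESeq2, 0 with only the libraries compared and 0 to 2 without 1 library, and in naive tissue 2 by DESeq2 and 1 without any library. The interaction gave 0 to 1. The cause of these shifts was not tested.

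Small differences changed sign. In ligated tissue the Tlr4 value of 0.01 became -0.00 with DESeq2 and with its size factors, -0.02 by library size, -0.01 with only the libraries compared and -0.07 to 0.15 without 1 library, and Tlr9 (0.03) became -0.00 by library size and -0.12 to 0.19. In naive tissue without 1 library, Tlr3 ran from -0.26 to 0.12, Tlr4 from -0.19 to 0.02, Tlr13 from -0.17 to 0.20 and Cd14 from -0.50 to 0.27, and the Tlr4 interaction from -0.01 to 0.25.

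The correlation of same-numbered deviations from the group means ran from -0.23 to 0.28 over 18 pairs and exceeded 0.1 in 2. For different numbers it ran from -0.34 to 0.43 over 36 pairs and exceeded 0.1 in 12. With 3 libraries per group, these values cannot tell whether same-numbered mice were matched. With the number as a replicate block, 7 members were called in CybbKO, 0 in WT and 9 averaged, and 271, 1573 and 2997 genes. Fits of only the libraries compared could not be made for the interaction and the averaged contrast, which use all 4 groups.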
